A study of Homo sapiens with 8 samples.

Results

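The growth-arrest-specific (GAS) genes were first found as genes that mouse fibroblasts turn on when serum is withdrawn, and 1 of them, *GAS6*, encodes the ligand of the receptor kinases TYRO3, AXL and MERTK, known together as the TAM receptors. Their RNA was followed through serum withdrawal in A375, a human melanoma cell line. The 10 genes were taken by symbol from the 58051 genes of the count files: *GAS1*, *GAS2*, *GAS2L1*, *GAS2L3*, *GAS7*, *PMP22* (also named GAS3), *GAS6*, *AXL*, *TYRO3* and *MERTK*. All 10 had enough reads to be among the 17671 genes tested. Wild-type A375 lines named WT1, WT2, WT3 and WT4 were each kept for 12 h in DMEM with 10% FBS (fetal bovine serum) or in DMEM with no FBS. This gave 8 libraries, 1 per line and condition, made from total RNA depleted of ribosomal RNA. In the study, wild type refers to *NECTIN1*, which was knocked out in other A375 lines not analysed here. The study calls wild-type lines the parents of knockout lines grown from single clones, and how WT1 to WT4 differ from one another is not given in the sources used here.

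The proteins named GAS do a range of jobs. GAS1 is a membrane-anchored co-receptor of Hedgehog ligands, GAS2 and its relatives GAS2L1 and GAS2L3 link actin filaments to microtubules, GAS7 shapes membranes and actin, and PMP22 is a 4-pass membrane protein of peripheral myelin. GAS6 is a secreted protein that needs vitamin K-dependent carboxylation, and it bridges phosphatidylserine on dying cells to TAM receptors. AXL is known in melanoma for its high level in cells with low MITF, the master regulator of the melanocyte lineage.

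Between 29759279 and 67101005 reads were counted on genes in the serum libraries and between 37847737 and 73341551 in the serum-free ones. Reads aligned to more than 1 place, which were not counted, made up 22.7% of the total in WT1 and 16.8% in WT2 with serum and between 5.73% and 10.1% in the other 6 libraries. Of 7 markers of the melanocyte lineage, *SOX10* had no reads in any library, *PMEL*, *MLANA*, *TYR* and *DCT* stayed under 1 RPKM (reads scaled to exon length and to the TMM-adjusted library size), *S100B* ran from 7.51 to 19.3 RPKM and *MITF* from 4.06 to 5.95 RPKM. *SOX10* lies within the span of *POLR2F* and shares 260 of its 4826 exon bases with it, on the opposite strand. The strand setting of the counting is not given, and why *SOX10* had no reads was not tested. Summed markers reached at most 2.96 RPKM for fibroblasts, 9.47 RPKM for keratinocytes, 9.74 RPKM for Schwann cells, 0.0958 RPKM for endothelium and 0.0627 RPKM for leukocytes, and the ranges of these sums with and without serum overlapped in every list. Of the 4 fibroblast markers, *PDGFRA* rose without serum, from 0.709 ± 0.20 to 2.39 ± 1.17 CPM (SD, n = 4, edgeR adjusted p = 0.00767, CPM being reads scaled to the size of the library), *DCN* passed upward with the line as a replicate block (adjusted p = 0.0125), and the list's median log2 fold change was 0.51. The Schwann cell sum was higher without serum in all 4 lines, and with the block 1 of its 2 markers passed upward (background 23.2% of all genes). The part of such cells in the results was not tested.

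Promoters of the GAS1 co-receptor, the ligand and a receptor are shown first. Each is read 5′ to 3′ on the strand of the gene, from 250 bases before to 50 bases after an annotated start in RefSeq (GRCh38.p14). Capitals mark matches, on either strand, to 9 short motifs: FOXO (GTAAACA), AP-1 (TGANTCA), TEAD (GGAATG), E-box (CACGTG), a GLI core (CCACCCA), CHR (TTTGAA), SP/KLF (GGGCGGG), the CCAAT box and the TATA box (TATAAA).
*GAS1*, chr9:86947457-86947756, minus strand: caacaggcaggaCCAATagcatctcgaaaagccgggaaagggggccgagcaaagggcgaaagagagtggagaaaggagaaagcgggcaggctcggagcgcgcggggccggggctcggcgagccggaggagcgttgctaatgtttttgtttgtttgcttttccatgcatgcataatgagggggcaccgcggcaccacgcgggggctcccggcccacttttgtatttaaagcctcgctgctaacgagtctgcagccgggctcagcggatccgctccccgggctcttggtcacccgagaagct
*GAS6*, chr13:113864027-113864326, minus strand: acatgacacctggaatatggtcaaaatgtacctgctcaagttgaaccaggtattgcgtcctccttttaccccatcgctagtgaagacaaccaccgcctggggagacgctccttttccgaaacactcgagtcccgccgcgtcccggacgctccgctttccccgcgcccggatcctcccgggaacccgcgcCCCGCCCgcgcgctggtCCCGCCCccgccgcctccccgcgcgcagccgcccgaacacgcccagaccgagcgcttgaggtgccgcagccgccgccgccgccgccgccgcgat
*AXL*, chr19:41226505-41226804, plus strand, an internal start: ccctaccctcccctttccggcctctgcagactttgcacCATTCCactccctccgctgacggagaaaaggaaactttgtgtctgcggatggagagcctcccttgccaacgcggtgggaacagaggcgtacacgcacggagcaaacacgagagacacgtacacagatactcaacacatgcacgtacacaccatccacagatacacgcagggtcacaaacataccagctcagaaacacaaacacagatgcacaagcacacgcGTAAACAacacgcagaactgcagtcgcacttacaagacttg
The *GAS1* promoter held 1 CCAAT box, a motif present in 34.6% of the 35116 promoters in the table. *GAS6* held 2 SP/KLF matches, a motif present in 33.1% of promoters. The internal start of *AXL* held 1 FOXO and 1 TEAD match, present in 3.42% and 14% of promoters, while the outer start at chr19:41218973-41219272 held none of the 9 motifs. Promoters were listed for 8 of the 10 genes, 17 promoters in all, and none for *GAS2L1* or *GAS7*. The counts are per gene and do not tell the starts of a gene apart.

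The question was how each gene's RNA differed without serum. In the 4 lines, *GAS1*, *GAS2*, *GAS2L1*, *GAS7* and *GAS6* were higher without serum in every line, *GAS2L3*, *PMP22*, *AXL* and *MERTK* were lower in every line, and *TYRO3* was higher in 2 lines and lower in 2. All genes pointing the same way in every line made up 55.4% of those tested, against 9 of these 10. The largest differences were in *GAS2* and *GAS1*, each more than 2-fold higher, and in *PMP22* and *MERTK*, lower by 1.68-fold and 2.19-fold. *AXL*, by far the most abundant of the 10, was 1.25-fold lower.

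In edgeR's quasi-likelihood test without regard to line, with Benjamini-Hochberg adjustment over all genes tested, 2 of the 10 passed an adjusted p-value of 0.05, *GAS2* and *GAS6*, both higher. The background was 25.1% of all genes, 11.1% higher and 14% lower. No member passed in the lower direction in this fit, where 2 of them, *PMP22* and *MERTK*, had an unadjusted p under 0.05, and DESeq2 and limma's voom each called 1 lower. With the line as a replicate block, 9 of the 10 passed (background 45.7%), all but *TYRO3*: 5 of them higher (background 23.2%) and 4 lower (background 22.4%). The median log2 fold change of the 10 was 0.065, beside 0.033 for all genes tested, with 5 values above 0 and 5 below. Differences across all genes followed transcript GC content, with a Spearman's rho of 0.36 (across genes, which are not independent replicates). With a correction for GC content, 1 of the 10, *GAS2*, passed without the block (background 26.7%). With the correction and the block 6 of the 10 passed (background 46.3%): *GAS1*, *GAS2* and *GAS7* higher (background 22.6%) and *PMP22*, *AXL* and *MERTK* lower (background 23.7%).

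**Figure D1:**
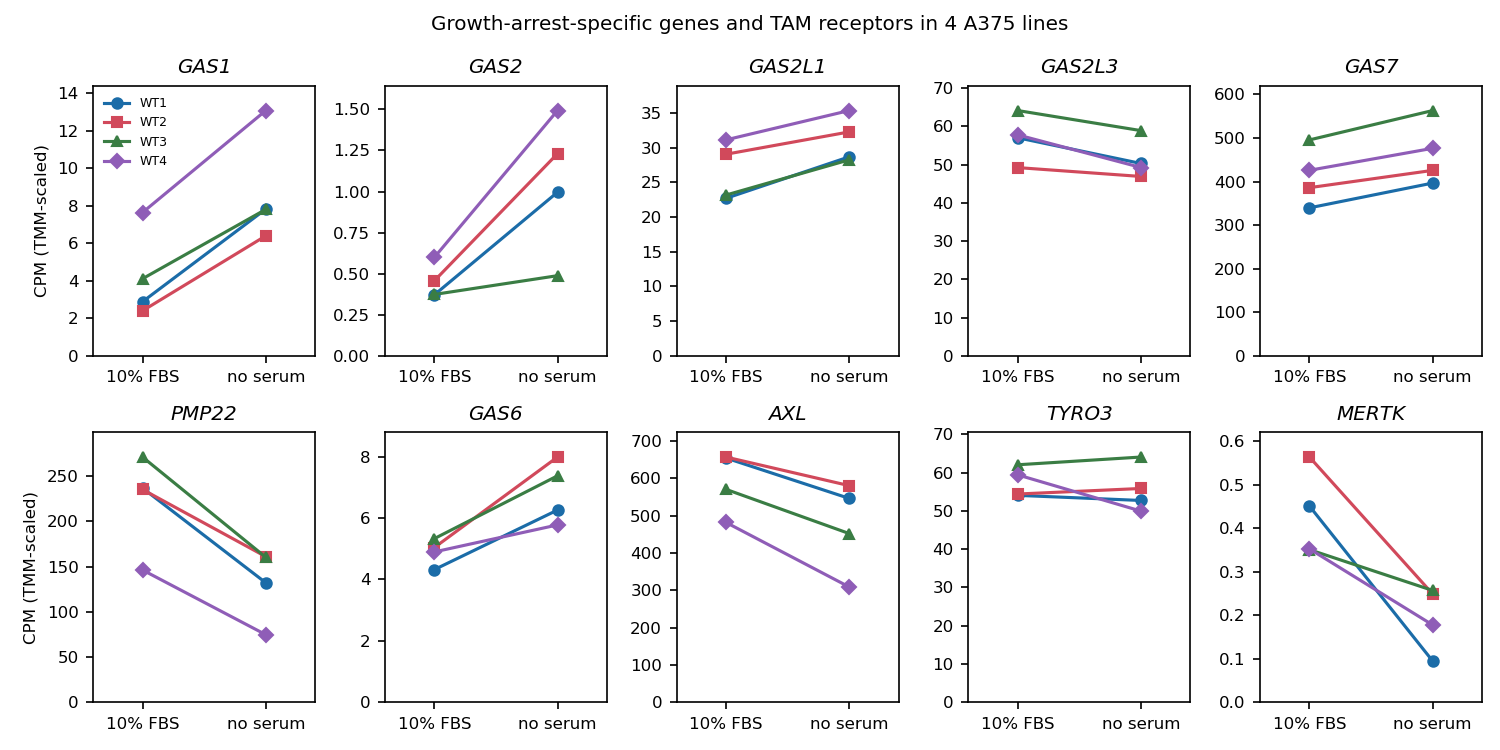
CPM (counts scaled to the TMM-adjusted library size, linear axis from 0) of each of the 10 genes in DMEM with 10% FBS and without serum. Each line joins the 2 libraries of 1 A375 line. The 4 lines of *GAS1*, *GAS2*, *GAS2L1*, *GAS7* and *GAS6* all slope up, those of *GAS2L3*, *PMP22*, *AXL* and *MERTK* all slope down, and those of *TYRO3* cross.

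*GAS1* (ENSG00000180447, chr9:86944362-86947506, minus strand) encodes a GPI-anchored protein that can hold fibroblasts in quiescence. In serum it was at 2.89, 2.40, 4.11 and 7.64 CPM in WT1, WT2, WT3 and WT4. Without serum it was at 7.82, 6.40, 7.81 and 13.1 CPM in the same order. Each line was higher without serum, by 2.71-, 2.66-, 1.90- and 1.71-fold, but the groups overlapped because WT4 with serum lay among the serum-free values of the other lines. The log2 fold change was 1.05 (SE 0.38) with an edgeR adjusted p of 0.0722 without the block and 1.12 with an adjusted p of 1.26e-05 with it. Without a block, DESeq2 (adjusted p = 0.0134) and limma's voom (0.0320) called it, and edgeR did when WT4 or its serum library was left out (adjusted p = 0.00326 at the lowest). With the block it held whichever line was left out.

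*GAS2* (ENSG00000148935, chr11:22626002-22813055, plus strand) encodes an actin-associated protein that caspases cleave during apoptosis. Its reads were few, 14, 30, 16 and 17 counts with serum in WT1 to WT4 and 42, 94, 19 and 84 without. Scaled to library size this was 0.371, 0.457, 0.374 and 0.599 CPM with serum and 0.996, 1.23, 0.488 and 1.49 CPM without. WT3, with a 1.31-fold difference, stood below the other lines, which ranged from 2.49- to 2.69-fold, and its serum-free value was under the WT4 serum value. This was a log2 fold change of 1.24 (SE 0.36) with edgeR's adjusted p at 0.0315, or 1.18 and 0.00581 with the block. The call without the block held in only 3 of the 12 fits that left out a line or a library (up to adjusted p = 0.138), those without WT3, without WT3 serum-free and without WT4 serum. With the block it held whichever line was left out (edgeR adjusted p up to 0.0463). With the GC correction the log2 fold change was 1.39 (edgeR adjusted p = 0.0235, and 0.0022 with the block). *GAS2* shares 315 of its 4202 exon bases with *FANCF* on the opposite strand.

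*GAS2L1* and *GAS2L3* carry the same pair of actin- and microtubule-binding domains as GAS2, and they moved in opposite directions by small amounts. *GAS2L1* (chr22:29306650-29312787), whose protein sits at growing microtubule ends, went from 22.7, 29.0, 23.2 and 31.1 CPM with serum in WT1 to WT4 to 28.7, 32.2, 28.2 and 35.3 CPM without. *GAS2L3* (chr12:100573684-100628288, plus strand), whose protein works at the spindle midzone and in cytokinesis, went from 57.0, 49.2, 64.1 and 57.8 CPM to 50.3, 46.9, 58.9 and 49.2 CPM. The groups overlapped for both genes. The log2 fold changes were 0.23 (SE 0.12, edgeR adjusted p = 0.194) for *GAS2L1* and -0.15 (SE 0.10, adjusted p = 0.286) for *GAS2L3*, and both passed with the block (edgeR adjusted p = 0.0101 and 0.0495). *GAS2L1* lost the blocked call without WT1 or without WT3, and *GAS2L3* lost it without any 1 of the 4 lines. With the GC correction and the block the signs turned to -0.07 (edgeR adjusted p = 0.413) and 0.05 (adjusted p = 0.488). *GAS2L1* had the highest GC content of the 10 transcripts, 66.4%, and *GAS2L3* the lowest, 37.1%, beside a median of 47.9% for tested genes.

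*GAS7* (ENSG00000007237, chr17:9910606-10198606) encodes an F-BAR protein best known in neurons. It was at 340, 386, 496 and 426 CPM with serum and 397, 426, 563 and 476 CPM without serum in WT1 to WT4. Lines kept their order in both conditions, so the groups overlapped although each line was higher by 1.1- to 1.17-fold. The log2 fold change of 0.18 (SE 0.14) had an edgeR adjusted p of 0.372 without the block, 0.00896 with it and 0.0483 with block and GC correction (log2 fold change 0.10). Leaving out WT1 or WT3 ended the blocked call.

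*PMP22* (ENSG00000109099, chr17:15229779-15265326, minus strand), named GAS3 for its rise in arrested fibroblasts, is the gene whose dosage underlies a common inherited neuropathy. It was at 237, 235, 271 and 146 CPM with serum and 132, 161, 160 and 74.8 CPM without serum in WT1 to WT4. It was lower in every line, but the serum value of WT4 lay between the serum-free values of WT1 and WT3. Its log2 fold change was -0.75 (SE 0.27, edgeR adjusted p = 0.0806), and with the block it was -0.78 with an adjusted p of 6.40e-07, the lowest of the 10. As for *GAS1*, leaving out WT4 or its serum library gave a call without the block (adjusted p = 9.64e-04 at the lowest), and the blocked call held without each line in turn. DESeq2 called it without a block (adjusted p = 0.00883). *PMP22* shares 681 of its 10398 exon bases with other annotated genes.

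The ligand *GAS6* (ENSG00000183087, chr13:113820549-113864076, minus strand) was at 4.32, 5.04, 5.33 and 4.90 CPM with serum in WT1 to WT4 and at 6.26, 7.98, 7.37 and 5.77 CPM without serum. The groups did not overlap, which was also so for *MERTK* among the 10 and for 27.5% of all genes tested. Counts ran from 139 to 610. *GAS6* rose by 0.48 on the log2 scale (SE 0.15, edgeR adjusted p = 0.0373, or 0.00406 with the block), a 1.4-fold difference. The call without the block stayed in 3 of 12 fits that left out a line or a library, the 3 that left out WT4 or 1 of its libraries, and its adjusted p reached 0.174 in the others, while the blocked call held without each line. With the GC correction the difference was 0.26 (edgeR adjusted p = 0.256, and 0.0693 with the block), and *GAS6*, at 61.8%, had the second highest GC content of the 10.

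The antisense gene *GAS6-AS1* overlaps 22293 bases of the *GAS6* span and shares 421 of its 6015 exon bases, so without a known strand setting part of its reads cannot be told from *GAS6*. It had more reads than *GAS6* in every library, 1.82 to 3.11 counts per *GAS6* count. It had 297, 639, 417 and 312 counts with serum and 538, 1401, 678 and 1010 without serum in WT1 to WT4, and rose by 0.80 on the log2 scale (SE 0.15, edgeR adjusted p = 0.00485). Its part in the rise of *GAS6* was not tested. The divergent *GAS6-DT* had 0 to 11 counts per library and *GAS1RR*, next to *GAS1*, 0 to 5, too few to be tested.

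Among the receptors, *AXL* (ENSG00000167601, chr19:41219223-41261766, plus strand) was at 654, 656, 570 and 481 CPM with serum and 546, 580, 452 and 309 CPM without serum in WT1 to WT4. It was lower in each line, most in WT4, where 0.641 of the serum level remained against 0.793 to 0.883 in the other lines. The groups overlapped, since WT4 with serum was under the serum-free values of WT1 and WT2. The log2 fold change was -0.32 (SE 0.19, edgeR adjusted p = 0.253), and -0.35 with the block (adjusted p = 5.88e-04), a call that held without each line and with the GC correction (-0.45, edgeR adjusted p = 1.55e-05). *AXL* was lower and its ligand *GAS6* higher in every line. The fall of *AXL* was largest in WT4, where the rise of *GAS6* was smallest (1.18-fold), and smallest in WT2, where that rise was largest (1.59-fold). A link between the 2 genes was not tested.

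*MERTK* (chr2:111898607-112029561, plus strand), the TAM receptor of phagocytes, had 17, 37, 15 and 10 counts with serum and 4, 19, 10 and 10 without. These are 0.451, 0.563, 0.351 and 0.352 CPM with serum and 0.0948, 0.249, 0.257 and 0.178 CPM without serum. Its log2 fold change was -1.13 (SE 0.38, edgeR adjusted p = 0.0556, and 0.0412 with the block). The blocked call was lost when any 1 of the 4 lines was left out, and a minimum of 10 counts in every library removed the gene. At so few counts the size of the difference has a wide interval, from -1.99 to -0.28 on the log2 scale without the block.

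*TYRO3* (chr15:41559212-41583589, plus strand), the TAM receptor best known in the nervous system, was at 54.0, 54.4, 62.0 and 59.4 CPM with serum and 52.7, 55.8, 64.0 and 49.9 CPM without serum in WT1 to WT4. WT4 was lower by the ratio 0.841, and the other lines lay between 0.975 and 1.03. The log2 fold change of -0.05 (SE 0.09, edgeR adjusted p = 0.739) had a 95% interval from -0.25 to 0.15, or from -0.19 to 0.09 with the block. Its sign turned with upper-quartile scaling (0.02) and without WT4. The pseudogene *TYRO3P* held 11 to 52 counts per library, against 1686 or more for *TYRO3*.

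**Figure D2:**
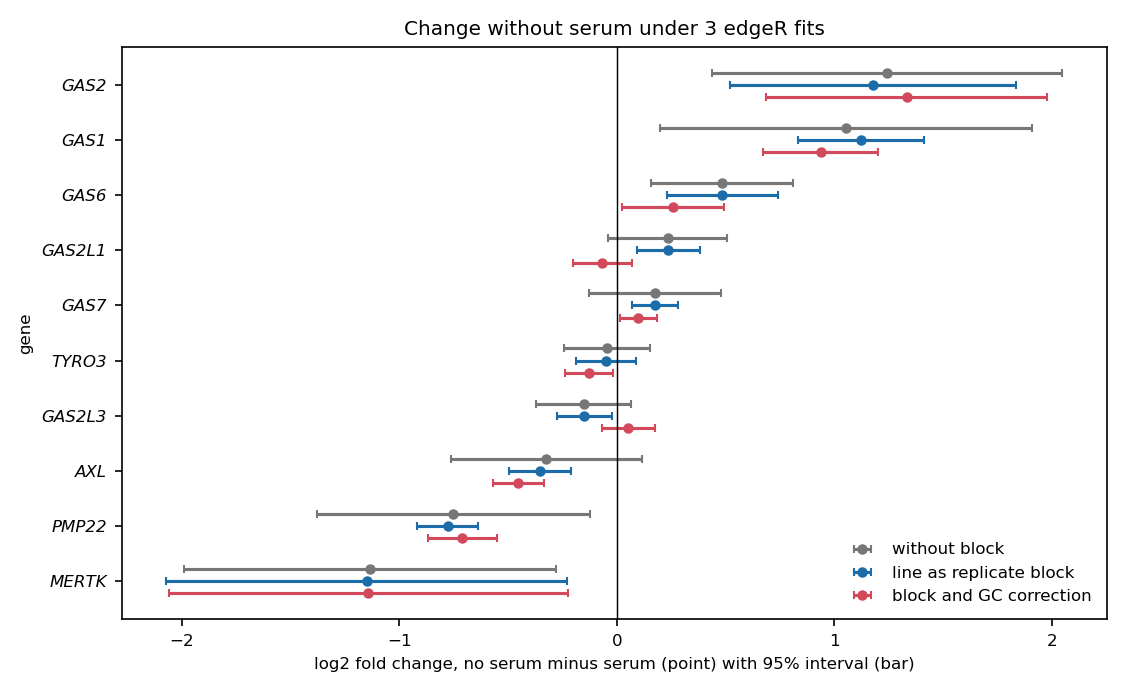
Log2 fold change of each gene without serum against serum (points) with its 95% interval (bars) from 3 edgeR fits: without a block, with the line as replicate block, and with block and GC correction. Intervals of *GAS1*, *PMP22* and *AXL* narrow with the block, those of *MERTK* do not, and *GAS2L1* and *GAS2L3* change sign with the GC correction.

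Levels were compared between genes per exon length, in RPKM. With serum the order was *AXL* (115 ± 16.2 RPKM, SD, n = 4), *GAS7* (40.5 ± 6.50), *PMP22* (21.4 ± 5.13), *GAS2L3* (7.68 ± 0.82), *GAS2L1* (5.96 ± 0.95), *TYRO3* (5.33 ± 0.36), *GAS1* (1.36 ± 0.75), *GAS6* (0.814 ± 0.070), *GAS2* (0.107 ± 0.025) and *MERTK* (0.104 ± 0.024). The median gene tested was at 2.75 RPKM. Ranges over the lines overlapped between *GAS2L3* and *GAS2L1*, between *GAS2L1* and *TYRO3*, between *GAS1* and *GAS6*, and between *GAS2* and *MERTK*. Within the lines with serum, *GAS2L3* was above *GAS2L1* in 4 of 4, *GAS2L1* above *TYRO3* and *GAS1* above *GAS6* in 3 of 4 each, and *GAS2* above *MERTK* in 2 of 4. The order also rests on the exon length used. With the longest transcript's length, serum levels were 53.4 RPKM for *PMP22* and 49.8 for *GAS7*, and 1.85 for *GAS6* and 1.36 for *GAS1*, so both pairs changed places. *AXL* stayed first of the 10 with that length, in TPM and with library totals without TMM. Without serum *AXL* (91.8 ± 23.6 RPKM), *GAS7* (45.8 ± 7.18) and *PMP22* (12.7 ± 3.89) remained the highest, while *GAS1* (2.79 ± 0.94) and *GAS6* (1.14 ± 0.17) no longer overlapped, nor did *GAS2* (0.250 ± 0.10) and *MERTK* (0.0471 ± 0.018). *PMP22* then overlapped *GAS2L1* (7.0 ± 0.75), its neighbour in the order, because of WT4 at 7.20 RPKM, and *GAS2L1* overlapped *GAS2L3* (6.91 ± 0.70). *TYRO3* was at 5.16 ± 0.57 RPKM without serum. With the longest transcript's length, *GAS1* and *GAS6* averaged 2.79 and 2.59 RPKM without serum, so their separation there also rests on the exon length used.

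**Figure D3:**
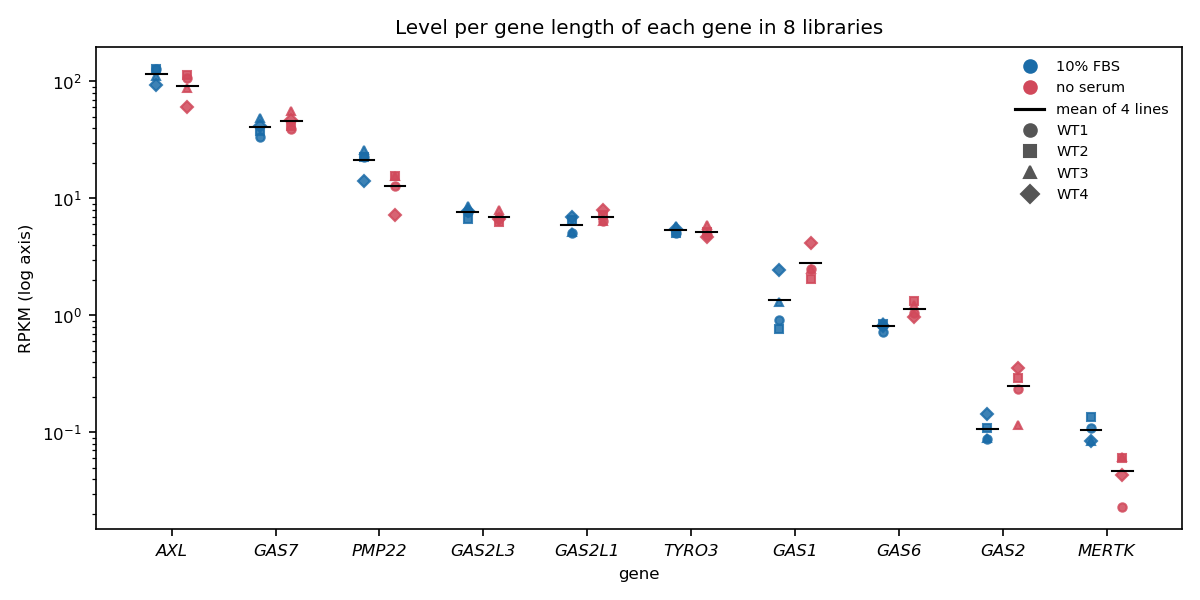
RPKM (log axis) of the 10 genes in each of the 8 libraries, ordered by their mean with serum. Blue marks are libraries with 10% FBS, red marks libraries without serum, shapes are the 4 lines and bars their mean; *AXL* averaged 115 RPKM with serum and *MERTK* 0.104 RPKM.

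The TAM receptors were unequal in these cells. *AXL* made up 92.8% to 96.1% of the summed RPKM of the 3 TAM receptors in each library. Among 58 receptor tyrosine kinase genes it ranked first in 6 of the 8 libraries and second to *EPHA2* in both libraries of WT2, with 17.5% to 28.6% of the summed RPKM of these kinases. *TYRO3* ranked between 14 and 17 and *MERTK* between 34 and 44. Among ligands, *PROS1*, the anticoagulant protein S that also binds TYRO3 and MERTK, was at 1.14 to 1.74 RPKM beside 0.718 to 1.33 RPKM for *GAS6*, with a log2 fold change of 0.24 (edgeR adjusted p = 0.237, and 0.0944 with the block). Both ligand RNAs were thus under the median gene while *AXL* ranked at 315 of 17425 genes with serum and 337 without.

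**Figure D4:**
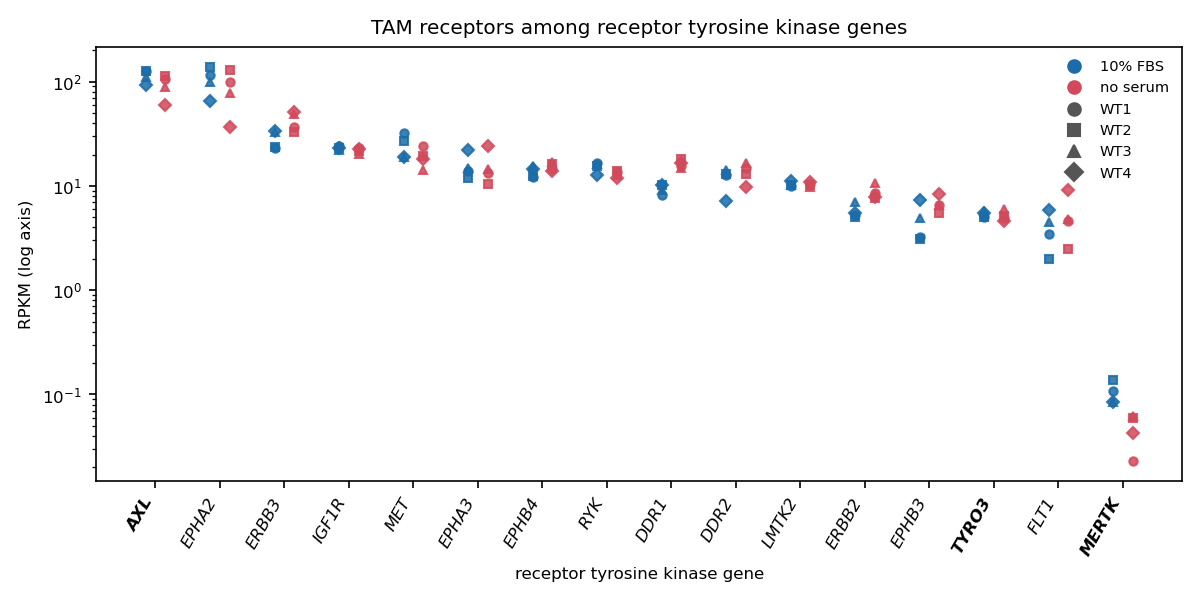
RPKM (log axis) of the 15 receptor tyrosine kinase genes with the highest mean over 8 libraries, and of *MERTK*. Blue marks are libraries with 10% FBS, red marks those without serum, and shapes the 4 lines; *AXL* and *EPHA2* lead, *TYRO3* is in place 14 by this mean and *MERTK* is at most 0.136 RPKM.

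The 4 lines were then compared with one another, as a test of the 3 line terms in a model with line and serum. *PMP22*, *GAS7*, *AXL*, *GAS1*, *GAS2L1* and *GAS2L3* differed among lines, 6 of 10, beside 22.9% of all genes tested. *PMP22* was 1.99-fold lower in WT4 than in WT3 (edgeR adjusted p = 1.00e-05), *AXL* 1.60-fold lower in WT4 than in WT2 (adjusted p = 3.71e-04), and *GAS1* 2.53-fold higher in WT4 than in WT2 (adjusted p = 4.58e-04). WT4 therefore stood at the low end for *PMP22* and *AXL* and at the high end for *GAS1*. *GAS7* was 1.44-fold higher in WT3 than in WT1 (edgeR adjusted p = 3.29e-04). The calls for *PMP22* and *AXL* held in all 12 fits that left out a line or a library, that for *GAS1* was lost without WT4 (edgeR adjusted p = 0.105) and that for *GAS7* without WT3 (adjusted p = 0.0547). *GAS2L1* (edgeR adjusted p = 0.0165) and *GAS2L3* (adjusted p = 0.0326) each lost the call in 7 or 8 of these fits. No difference among lines passed for *GAS2* (edgeR adjusted p = 0.233), *GAS6* (0.371), *TYRO3* (0.179) or *MERTK* (0.779). *TYRO3* passed with the GC correction (edgeR adjusted p = 0.0464) and in the 3 fits without WT4 or 1 of its libraries, and the GC correction ended the call for *GAS2L1* (adjusted p = 0.147). Whether the response to serum differs between lines could not be tested with 1 library per line and condition.

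For each gene the 3 protein-coding genes with the most similar profile were found by Pearson's r of log2 CPM over the 8 libraries, among the 11532 genes averaging 100 counts or more. The libraries share lines, depth and base composition, so these values are descriptive. *AXL* was closest to *THBS1*, which encodes thrombospondin 1 (r = 0.998), then to *KRT80* (0.992) and *SLC1A3* (0.989). *PMP22* was closest to *NDUFA12* (r = 0.994), *LDAH* (0.987) and *MMP8* (0.985), and *GAS1* to *CSNK1D* (0.993), *PFKL* (0.991) and *ZNF282* (0.988). Genes with a profile close to *GAS7* included *ST6GAL1* (r = 0.959) and *CIITA* (0.958). *GAS6* was closest to *TMEM132A* (r = 0.973), *PRKAR1B* (0.967) and *TCEA2* (0.962). The best match was *FNBP1* for *GAS2* (r = 0.981), *SOX13* for *GAS2L1* (0.991), *PARK7* for *GAS2L3* (0.981), *FUNDC2* for *MERTK* (0.973) and *CD81* for *TYRO3* (0.927, the lowest of the 10).

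Genes that work with the members were read from the same fits. Of 6 tested partners and relatives of GAS1, 2 rose and 1 fell without the block, beside 11.1% and 14% of all genes: *BOC*, a fellow Hedgehog co-receptor, rose by 1.37 on the log2 scale (SE 0.32, edgeR adjusted p = 0.0128) and *PTCH1*, the Hedgehog receptor and a target of the pathway, rose by 0.97 (SE 0.28, adjusted p = 0.0368). The third co-receptor, *CDON*, fell by 0.26 (edgeR adjusted p = 0.0169). The median of this list was 0.91, beside 0.033 for all genes. With a line or a library left out, the calls for *BOC*, *CDON* and *PTCH1* held in 10, 8 and 3 of 12 fits without the block. With the block, that for *BOC* held without each line in turn (edgeR adjusted p up to 0.0017). That for *PTCH1* was also made, over all libraries, with the block (edgeR adjusted p = 1.20e-07).

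Of 16 genes of cytokinesis and the chromosomal passenger complex, the setting in which GAS2L3 works, 10 fell in the test without a block and 14 with it, beside 14% and 22.4% of all genes, with a median log2 fold change of -0.38. The 10 calls became 6 without WT1 or without WT3, fits in which 8.78% and 10.4% of all genes passed. Examples are *KIF23*, the kinesin of centralspindlin (-0.56, edgeR adjusted p = 0.00193), the kinase *AURKB* (-0.55, adjusted p = 0.00364) and *CDCA8*, or borealin (-0.50, adjusted p = 0.00427). *GAS2L3* itself was at -0.15. None of the 16 passed upward without the block, where 1 had an unadjusted p under 0.05, DESeq2 and limma's voom called 0, and 1 passed upward with the block. Of 5 tested relatives of GAS2 and end-binding proteins, *MAPRE1*, which encodes the EB1 protein that brings GAS2L1 to microtubule ends, fell by 0.55 (SE 0.07, edgeR adjusted p = 0.0012).

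Of 3 tested relatives of PMP22, none passed edgeR's test without the block, 1 had an unadjusted p under 0.05, and DESeq2 and voom called 0. With the block *EMP1* and *EMP3* fell (edgeR adjusted p = 0.0201 and 0.0221), beside 22.4% of all genes. The list median was -0.19. The blocked call for *EMP1* was lost without WT1, without WT3 and with the GC correction (edgeR adjusted p = 0.268). Of 3 tested genes with other names for growth arrest or serum deprivation, *CAVIN3*, found as a protein of serum-deprived cells, rose by 0.47 (SE 0.12, edgeR adjusted p = 0.0171). This call held in 5 of 12 fits that left out a line or a library. With the block it held without each line in turn (edgeR adjusted p up to 0.00542). With the GC correction and the block *CAVIN3* was at 0.17 (edgeR adjusted p = 0.0047). The non-coding *GAS5*, which degrades by nonsense-mediated decay in growing cells, was at 303 ± 18.5 CPM with serum and 263 ± 19.0 CPM without (SD, n = 4), with a log2 fold change of -0.20 (edgeR adjusted p = 0.0639, and 0.00900 with the block). With the GC correction and the block this was -0.04 (edgeR adjusted p = 0.546).

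Of 6 tested genes for other TAM ligands and GAS6 maturation, *VKORC1L1*, a vitamin K epoxide reductase, fell by 0.50 (SE 0.10, edgeR adjusted p = 0.00652), and the list median was -0.16. This call was lost without WT1, where 8.78% of all genes passed. With the block 1 gene of this list rose and 2 fell, beside 23.2% and 22.4% of all genes. The GC correction gave 2 calls in it without the block and 5 with it, beside 26.7% and 46.3%. *GGCX*, the carboxylase that modifies GAS6, had a log2 fold change of -0.09 (edgeR adjusted p = 0.36). Of 17 tested genes for shedding and signaling of TAM receptors, 2 rose and 2 fell without the block (median 0.05), beside 11.1% and 14% of all genes. With the block 4 rose and 3 fell, beside 23.2% and 22.4%. The 4 calls without the block became 1 without WT1 or WT3 (8.78% and 10.4% of all genes passing) and 2 without WT2 (11.3%). They became 2 without the serum library of WT1 or WT2 (15.6% and 17.3%) or the serum-free library of WT3 or WT4 (18.9% and 17.3%). Without WT4 they became 7 (31.7%). The adaptor *GRB2* fell by 0.30 (edgeR adjusted p = 0.00475), *TNS2* rose by 0.40 (adjusted p = 0.00672) and *SRC* rose by 0.46 (adjusted p = 0.0242). The call for *GRB2* was lost in 1 of 26 alternative fits. With a line or a library left out, the call for *TNS2* held in 11 of 12 fits and that for *SRC* in 5. The GC correction lowered them to 0.17 (edgeR adjusted p = 0.151, and 0.0047 with the block) for *TNS2* and 0.29 (adjusted p = 0.0285) for *SRC*. Over the list, the GC correction gave 6 calls without the block and 10 with it, beside 26.7% and 46.3% of all genes. *ADAM10*, a sheddase of AXL, fell by 0.24 (edgeR adjusted p = 0.0302), but with the GC correction and the block its difference was -0.05 (adjusted p = 0.391).

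Among 45 tested receptor tyrosine kinases, the 3 TAM receptors included, 9 rose without the block, beside 11.1% of all genes, with a median of 0.28. The 9 calls became 3 without WT1 and 15 without WT4 with serum, fits in which 8.78% and 33.5% of all genes passed. *PDGFRB* rose by 1.33 (SE 0.11, edgeR adjusted p = 7.19e-04), *DDR1* by 0.79 (SE 0.09, adjusted p = 0.00112) and *INSR* by 0.44 (SE 0.08, adjusted p = 0.00478). No kinase passed downward without the block, where 2 had an unadjusted p under 0.05, DESeq2 called 0 and voom 1. With the block 19 rose and 8 fell, beside 23.2% and 22.4% of all genes, *AXL* and *MERTK* among the latter, as did *EPHA2* (log2 fold change -0.37, edgeR adjusted p = 0.0182), the kinase nearest to *AXL* in mean level, though *ERBB3* came between them in WT4 without serum. *MITF* fell by 0.28 in the test without a block (edgeR adjusted p = 0.0496), a call lost in 14 of 26 alternative fits.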

How the data were processed

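RNA was measured in 8 libraries of 4 wild-type A375 lines with and without serum. Groups and lines follow the labels. WT4 libraries have files named otherwise, so this line rests on the labels. The authors deposited raw counts for each gene, not normalized. Per the labels' processing notes, the tools were cutadapt, TopHat2 2.0.11 and HTSeq on GRCh38. The annotation release and strand setting are not given in the sources used here. The paper's methods describe FPKM values on hg19, which were not used. Ambiguous reads were 8.23% to 11.5% of each library, and the depth of 29759279 to 73341551 counts sets the precision for low genes such as *MERTK* and *GAS2*. Nothing says that conditions were repeated in separate cultures of a line, so p-values measure the spread between these libraries.

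After filterByExpr and TMM scaling, edgeR 4.0.16 (R 4.3.3, glmQLFit with robust estimation, glmQLFTest) compared serum-free with serum libraries without a block, and the lines by an F-test in a model with line and serum. P-values were adjusted by Benjamini-Hochberg over 17671 genes with a threshold of 0.05. Log2 CPM for correlations and for directions per line used a prior count of 2, and folds per line are ratios of CPM. RPKM used merged exon lengths, and GC content and lengths came from GENCODE lifted to GRCh37, another build than the counts. Same-numbered libraries come from the same line, and their deviations from condition means correlated at 0.403, 0.591, 0.456 and 0.604 in WT1 to WT4 (at most 0.126 between lines). The line number thus pairs the libraries. The blocked value is printed where it changes the call of a member, but not for every other gene or list. Alternatives were the replicate block, DESeq2 1.42.0, limma 3.58.1 (voom), scaling by RLE or upper quartile, no filter, a minimum of 10 counts per library, a GC correction, and each line or library left out. For levels they were the longest transcript's length, TPM and library totals without TMM. The blocked fits without each line were added after seeing the data.

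The members and lists were chosen with earlier results of these data known. *YEATS4* was dropped from a list after its values were seen, because its alias GAS41 does not stand for growth arrest. Named genes are the 10 members, up to 3 genes with the smallest p past the threshold in each list, the 3 genes most alike to each member, and antisense, pseudogene or overlapping neighbours. A gene that this rule names is not reported here. *GAS5*, *PROS1*, *GGCX*, *ADAM10*, *EMP1*, *EMP3*, *EPHA2*, *ERBB3*, *FANCF* and the markers other than *MITF* and *PDGFRA* were named after their values were seen. The tests were checked on simulated counts for 17468 genes, 200 of them moved by 1 on the log2 scale. Of these 99% were recovered without the block and 100% with it. The moved genes averaged more counts than *GAS2* or *MERTK*, and the simulated spread was set alike for every gene. The recovery therefore does not give the power for *GAS2* or *MERTK*, for smaller differences or for genes that spread more between lines.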

Additional observations from a re-analysis of the deposited data

How the results depend on the processing

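Of the 10 genes, 2 passed without the block. The count was 9 with the replicate block, 7 with DESeq2 and the block, 4 with DESeq2, 4 with limma's voom, 1 without a filter on low counts (43.1%, 30.2%, 26.5% and 11.3% of all genes in these 4), 1 with the GC correction and 6 with that correction and the block. Leaving out a line or a library gave 0 to 4 members without the block, and leaving out a line gave 5 to 7 with it. In edgeR's test 0 passed in 7 of these 12 fits, those without WT1, WT2, either of their libraries or WT3 with serum, where 2 to 5 members had an unadjusted p under 0.05 (DESeq2 and voom were run on all libraries). The most, 4, came without WT4 with serum. Over all genes, 4434 passed without the block, 8067 with it, 7618 with DESeq2 and the block and 8176 with the GC correction and the block. Leaving out a line or a library gave 1589 to 6128 genes without the block, and leaving out a line gave 6185 to 8938 with it. Among lines, 6 members passed, 3 to 7 with a line or library left out, and 4055 genes, 2364 to 7580 with one left out. The fewest members among lines came without WT3, the most without either library of WT4, and the serum-free libraries of WT2, WT3 and WT4 moved the count of genes most. The cause was not tested. Upper-quartile scaling moved the median of all genes to 0.098 on the log2 scale and the split of calls from 1957 higher and 2477 lower to 2508 higher and 1843 lower. It reversed *TYRO3* (0.018), as did leaving out WT4 (0.018 in both fits) or its serum-free library (0.0040), and the value of *TYRO3* ran from -0.127 to 0.018 with a line or library left out. *GAS2L1* reversed with the GC correction (-0.069, and -0.067 with the block), and so did *GAS2L3* (0.047, and 0.052 with the block). Neither *GAS1*, *GAS2*, *GAS7*, *PMP22*, *GAS6*, *AXL* nor *MERTK* changed sign in any of the 26 alternative fits that held it. Depth limits *GAS2* and *MERTK*, which had 4 to 94 counts per library.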
